A study of Mus musculus with 6 samples.

Results

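Imprinted genes are genes of which mainly the copy from 1 parent is read in at least some tissues, because the egg or the sperm left a DNA methylation mark on a control region. The set described here holds 34 mouse genes, beside 22180 genes with a probe set of their own in these data. They were named by symbol from textbook knowledge of imprinted clusters, with earlier results of these data known. Of the 34, 29 had at least 1 probe set annotated to that gene alone. Another 4 (H19, Rtl1, Mirg and Snrpn) were annotated only together with other symbols, and 1 (Zrsr1) was not named by the annotation used here.

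RNA came from 3 cultured mouse tumour lines, and each line gave 1 array labelled sh Spp1 and 1 labelled sh Ctrl. MC38 is a line from a colon adenocarcinoma, AE17 one from a malignant mesothelioma, and LLC one from Lewis lung carcinoma. The sh Spp1 cells carry the genotype label of Spp1 depletion, by a short hairpin RNA against Spp1, the gene of the secreted glycoprotein osteopontin, whereas the sh Ctrl cells carry the genotype label wild type. Whether they had received a control hairpin was not given in the sources used here, nor was whether a line was 1 clone. All cells grew in the same medium with 10% fetal bovine serum and none had another treatment. There was no second culture of any line and hairpin, so each ratio within a line is 1 array against 1 array. The p-values for the hairpin set the mean ratio against the spread of the ratio between the 3 lines. The p-values between lines rest on that same spread, not on a spread between replicate cultures.

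Many imprinted genes act on fetal growth, and they lie in clusters in which 1 control region sets the reading of several genes. In textbook cases the paternally read genes, such as Igf2, Peg3 and Mest, favour growth and the maternally read ones, such as Igf2r, Cdkn1c and Phlda2, restrain it. The zinc finger protein Zfp57, with its partner Trim28, keeps the methylation mark through early development by binding a methylated hexamer. The arrays measured the RNA of both parental copies together, so nothing below says which copy was read.

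The start regions of 4 genes are printed here because the results turn on their genes: Grb10 and Peg3 differed most between the lines, and Mest and Plagl1 had the arrays of AE17 on opposite sides of the detection limits. Each is the 300 bases from 250 before to 50 after a RefSeq transcript start on GRCm38.p6, written 5′ to 3′ on the gene's own strand, with every CG in capitals. The Grb10 window lies at chr11:12037371-12037670 on the minus strand, that of Peg3 at chr7:6730370-6730669 on the minus strand, that of Mest at chr6:30737800-30738099 on the plus strand and that of Plagl1 at chr10:13090582-13090881 on the plus strand.
Grb10: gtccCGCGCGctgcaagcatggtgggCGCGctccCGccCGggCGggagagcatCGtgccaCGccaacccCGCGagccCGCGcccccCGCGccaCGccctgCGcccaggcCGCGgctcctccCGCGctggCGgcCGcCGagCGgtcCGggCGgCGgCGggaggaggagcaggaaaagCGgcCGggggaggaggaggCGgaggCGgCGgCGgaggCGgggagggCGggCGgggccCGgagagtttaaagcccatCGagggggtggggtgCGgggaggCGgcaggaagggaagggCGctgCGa
Peg3: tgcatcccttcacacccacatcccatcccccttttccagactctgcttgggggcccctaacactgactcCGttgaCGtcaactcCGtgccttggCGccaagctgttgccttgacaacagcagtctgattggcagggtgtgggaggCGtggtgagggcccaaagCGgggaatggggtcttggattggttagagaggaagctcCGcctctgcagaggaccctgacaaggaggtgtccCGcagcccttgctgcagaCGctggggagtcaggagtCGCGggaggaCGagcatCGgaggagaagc
Mest: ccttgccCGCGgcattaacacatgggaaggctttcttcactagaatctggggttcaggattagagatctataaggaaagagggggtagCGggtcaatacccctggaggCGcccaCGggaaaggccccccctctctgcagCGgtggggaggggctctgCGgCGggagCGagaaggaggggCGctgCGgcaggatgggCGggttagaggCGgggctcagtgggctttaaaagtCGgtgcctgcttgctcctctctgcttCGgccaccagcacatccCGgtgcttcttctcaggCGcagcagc
Plagl1: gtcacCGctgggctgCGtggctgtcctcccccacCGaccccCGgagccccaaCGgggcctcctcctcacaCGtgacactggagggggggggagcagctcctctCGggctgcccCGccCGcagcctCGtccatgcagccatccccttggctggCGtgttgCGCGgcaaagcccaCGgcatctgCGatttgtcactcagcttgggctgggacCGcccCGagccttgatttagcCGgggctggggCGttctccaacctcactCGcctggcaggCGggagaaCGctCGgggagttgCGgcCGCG
The windows hold 45 CG in Grb10, 13 in Peg3, 17 in Mest and 26 in Plagl1. The median was 7 over all 32851 windows of that length and 13 over the 43 windows of 28 members. For Grb10 and Mest the window with the most CG was printed, so their counts are high by selection. The other Grb10 window holds 9 CG and another Mest window 8. The letters TGCCGC, the hexamer known for Zfp57, were searched on both strands. In the windows printed every match lies on the opposite strand, so the letters to be read there are GCGGCA. These begin at base 275 of the Grb10 window, at bases 9 and 184 of the Mest window and at base 161 of the Plagl1 window. The Peg3 window holds no match on either strand. Counted on both strands, the hexamer occurs in 9 of the 43 member windows and in 11.6% of all windows. The 9 include the Mest windows that start at 30737800 and 30737803, which overlap and hold the same matches. The hexamer itself holds a CG, and the windows compared were not matched for CG. A match is a run of letters, and neither methylation nor binding was measured here.

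Facts of the whole series bear on what follows. Spp1 itself is named by 0 probe sets of the annotation, so its depletion could not be checked and each direction rests on the labels. Over all probe sets, Pearson correlation between the sh Spp1 and the sh Ctrl array was 0.982 in MC38, 0.939 in AE17 and 0.979 in LLC. The AE17 sh Spp1 array correlated with the arrays of the other lines at 0.943 to 0.949 and the AE17 sh Ctrl array at 0.943 to 0.954, so each was closer to the other lines than to its own partner. The AE17 results are therefore given apart below, and the comparisons over lines were repeated without AE17. Defining markers of the labelled tissues were mostly not above the higher detection limit on both arrays of a line: 2 of 13 mesothelial markers were in AE17, where Wt1, Msln and Calb2 were not, 1 of 13 colon markers was in MC38 (Krt8), where Cdx2, Vil1 and Krt20 were not, and 3 of 12 lung epithelial markers were in LLC (Foxa2, Krt8 and Krt18), where Nkx2-1, Sftpc and Scgb1a1 were not. Msln stood at 9.96 with sh Spp1 and 9.87 with sh Ctrl in MC38. Of 8 leukocyte markers with a value, Cd68 was above the higher limit on all 6 arrays, at 6.51 to 8.71, and Ptprc was under the lower limit on all 6, at 2.86 to 3.33. Another, Lyz2, was at 5.12 with sh Spp1 and 7.50 with sh Ctrl in AE17. Between the AE17 arrays other markers of cell type also differed: the epithelial keratin Krt8 was at 6.47 with sh Spp1 and 11.08 with sh Ctrl, and the collagen gene Col1a1 at 11.96 with sh Spp1 and 6.87 with sh Ctrl. Summed over the 8 fibroblast and mesenchyme markers, the log2 levels in AE17 came to 71.8 with sh Spp1 and 62.8 with sh Ctrl, and over the 12 lung epithelial markers to 60.1 with sh Spp1 and 68.5 with sh Ctrl. Over the 13 mesothelial markers they came to 76.0 with sh Spp1 and 75.0 with sh Ctrl, and over the 8 leukocyte markers to 40.0 with sh Spp1 and 42.6 with sh Ctrl. These sums hide mixed signs within the lists. With sh Spp1 in AE17, 5 fibroblast and mesenchyme markers were higher and 3 lower, among them Pdgfra with a log2 ratio of -1.14. Of the mesothelial markers tested, 6 were higher (Pdpn and Gata6 by 2.76) and 6 lower (Krt8 by 4.61, Bnc1 by 1.21). Of the lung epithelial markers tested, 2 were higher and 8 lower. The part of these markers in the AE17 values of the imprinted genes was not tested.

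Levels are log2 intensities after quantile normalization, and each is read within a gene only. The 1400 probe sets of olfactory and vomeronasal receptors, which tumour lines are not known to use, gave detection limits for each array. The lower limit was their 95th percentile, at 5.15 to 5.32, and the higher limit was their 99th percentile, at 6.04 to 6.33. A gene under the lower limit may still be read at a level the probe set does not resolve, and in such bulk samples fewer cells with a transcript and less transcript per cell cannot be told apart.

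Of the 29 genes with a value, 7 were above the higher limit on all 6 arrays, 10 on some and 12 on none, beside 37.9% of all genes above it on all 6. On both arrays of a line, 7 lay at or above that limit in MC38, 9 in AE17 and 12 in LLC. The shares of all genes at that limit were 42.9% in MC38, 41.5% in AE17 and 42.3% in LLC. At the lower limit the counts were 15 in MC38, 20 in AE17 and 19 in LLC, against shares of all genes at 56.2% in MC38, 55% in AE17 and 55.3% in LLC. AE17 lay below the background at the higher limit and above it at the lower one. The place of the members beside the background thus moved with the limit, and it was not tested. The 7 above the higher limit on all 6 arrays were Igf2r, Airn, Impact, Gatm, Kcnq1ot1, Cd81 and Ube3a. The 12 that never reached it gave values of 3.36 to 6.20, with a median range of 0.65 over the 6 arrays. By parental copy, 3 of 14 paternally read genes with a value were above the higher limit on both MC38 arrays, 4 on both AE17 arrays and 7 on both LLC arrays. For the 13 maternally read genes the counts were 4 in MC38, 5 in AE17 and 4 in LLC. The copies are textbook labels and were not measured in these lines. Ube3a, counted here as maternally read in each line, is read from both copies outside neurons.

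**Figure D1:**
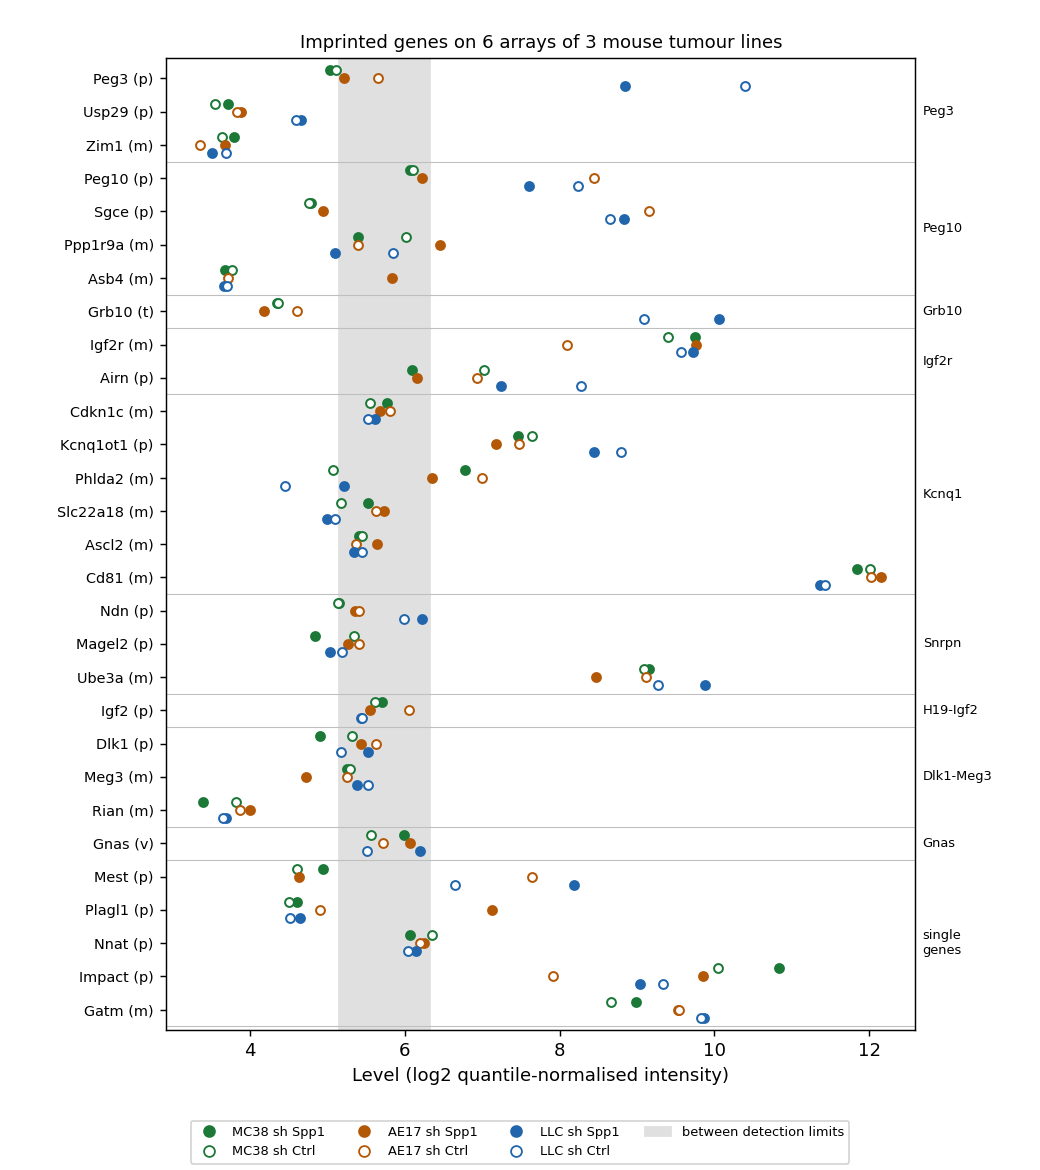
Level of each imprinted gene on the 6 arrays (log2 quantile-normalised intensity), grouped by imprinted cluster. Filled points are sh Spp1 and open points sh Ctrl, the grey band spans the lower and higher detection limits, and letters give the copy read (p paternal, m maternal, t by tissue, v by transcript). Peg3 and Grb10 are above the band on the LLC arrays and on no other array, and the Sgce and Mest points of AE17 lie on opposite sides of it.

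Over the 3 lines, no imprinted gene passed the test for the hairpin. In limma, with a block for the line and p-values adjusted by Benjamini-Hochberg over 16797 genes, 0 of the 25 members past the brightness filter had an adjusted p under 0.05, and 0% of all genes did. Before adjustment 1017 genes had a p under 0.05, among them Airn, lower with sh Spp1 as were 2.61% of all genes, and Gnas, higher as were 3.45%. The median log2 ratio of sh Spp1 over sh Ctrl over the 29 genes was 0.02 in MC38, -0.05 in AE17 and 0.04 in LLC, beside 0.01 in MC38, -0.03 in AE17 and 0.02 in LLC over all genes. The median size of the ratio, with its sign dropped, was 0.18 in MC38, 0.43 in AE17 and 0.18 in LLC, beside 0.22 in MC38, 0.39 in AE17 and 0.25 in LLC over all genes. The smallest adjusted p of a member was 0.723, and without AE17 the count was again 0.

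Within a line, ratios of at least 1 log2 unit were counted where at least 1 of the 2 arrays was at or above the lower limit. MC38 had 1 of 19, against 3.03% of all genes. It was Phlda2, on the higher side with 1.06% of all genes, while the lower side held 0 members and 1.97% of all genes. AE17 had 8 of 24, against 22.1%. There Igf2r, Ppp1r9a, Asb4, Plagl1 and Impact were higher with sh Spp1, as were 11.8% of all genes, and Peg10, Sgce and Mest lower, as were 10.3%. LLC had 3 of 21, against 4.25%. There Mest was higher, as were 2.11% of all genes, and Airn and Peg3 were lower, as were 2.14%. In AE17, 3 members had 1 array above the higher limit and the other under the lower one (Sgce, Mest and Plagl1), as had 2.84% of all genes. In MC38 1 member did (Phlda2), against 0.198%, and in LLC 0 did, against 0.221%.

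**Figure D2:**
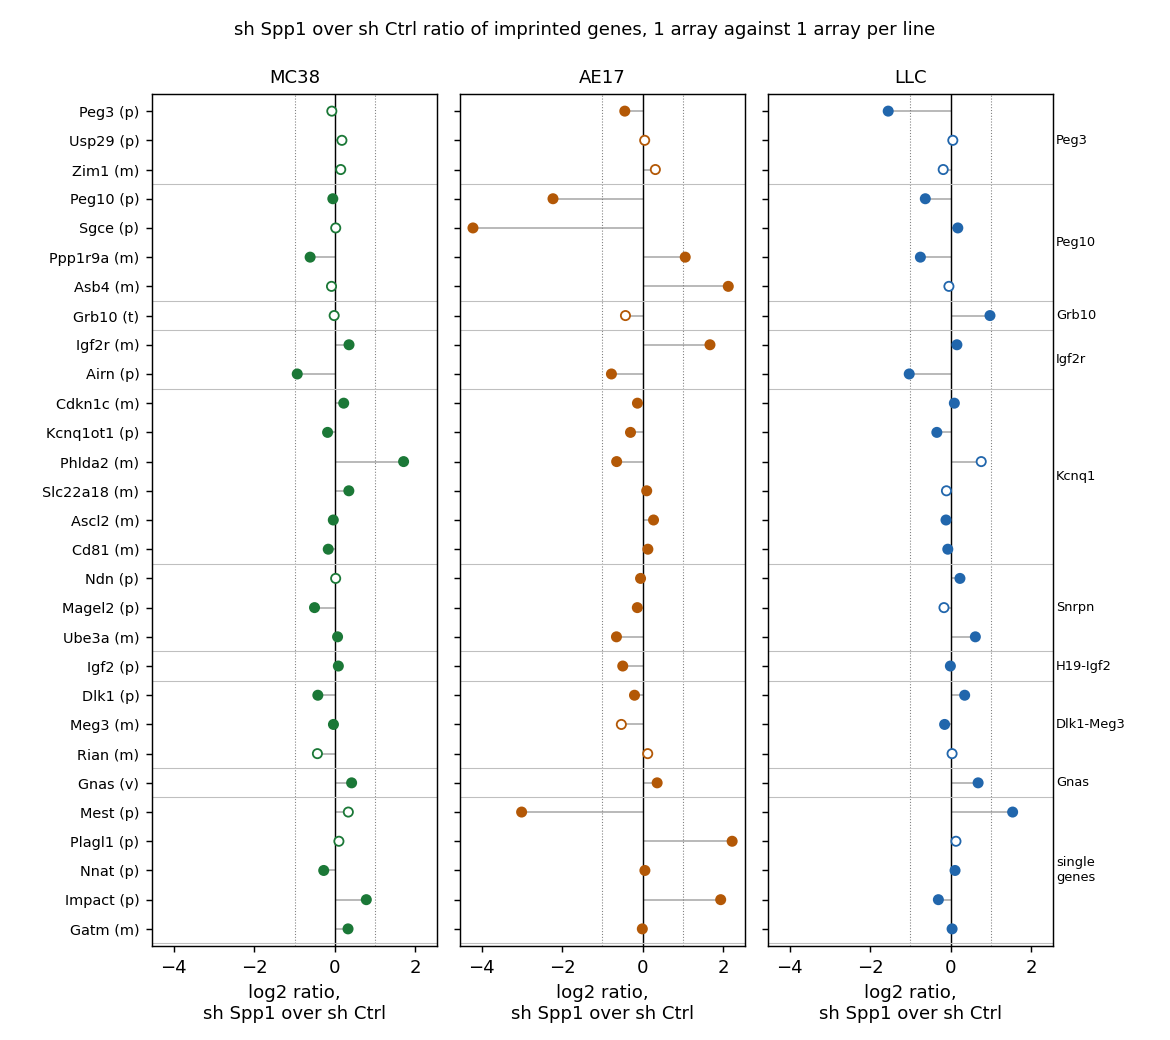
The log2 ratio of sh Spp1 over sh Ctrl for each imprinted gene, by line. Filled points have at least 1 of the 2 arrays at or above the lower detection limit, open points have both under it, and dotted lines mark ratios of -1 and 1. The widest spread is in AE17, from -4.22 (Sgce) to 2.22 (Plagl1), in both of which 1 array was under the lower limit.

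Growth factor signalling holds a ligand, its clearing receptor, an antisense RNA and an adaptor among these genes. Igf2, the fetal growth factor, stayed between the limits on every array, at 5.70 with sh Spp1 and 5.61 with sh Ctrl in MC38, 5.55 with sh Spp1 and 6.05 with sh Ctrl in AE17, and 5.44 on both arrays in LLC. H19, the long non-coding RNA read from the other copy of that cluster, was measured by a probe set shared with Mir675, at 4.38 to 5.03, under the lower limit on all 6 arrays. So neither end of the H19 and Igf2 cluster reached the higher limit in any line.

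Igf2r, the receptor that takes up Igf2 for breakdown and sorts lysosomal enzymes, was bright on every array. It stood at 9.75 with sh Spp1 and 9.40 with sh Ctrl in MC38, at 9.76 with sh Spp1 and 8.09 with sh Ctrl in AE17, and at 9.73 with sh Spp1 and 9.57 with sh Ctrl in LLC. The AE17 sh Ctrl array was the low one, and the ratio of 1.67 there was a 3.18-fold difference. All 3 sh Spp1 arrays were above all 3 sh Ctrl arrays, as for 5.74% of all genes. The mean ratio over lines was 0.73 ± 0.82 (SD, n = 3 lines) with an adjusted p of 0.723 in limma. Of its 8 nearest neighbours with a value, 0 had a ratio of 1 or more in any line.

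Airn, the long non-coding RNA read antisense across Igf2r from the paternal copy, was lower with sh Spp1 in each line. Its levels were 6.09 with sh Spp1 and 7.03 with sh Ctrl in MC38, 6.16 with sh Spp1 and 6.94 with sh Ctrl in AE17, and 7.24 with sh Spp1 and 8.27 with sh Ctrl in LLC. The sh Spp1 array was thus below its partner in all 3 lines, the ratios being -0.93 in MC38, -0.78 in AE17 and -1.03 in LLC, while the groups pooled over lines overlapped. The mean was -0.91 ± 0.13 (SD, n = 3 lines), with the smallest unadjusted limma p of the members, 0.00353, and an adjusted p of 0.723. Over the alternative settings that adjusted p ran from 0.152 to 0.943, so it did not pass under any of them. With each array centred on its median the ratios were -0.77 in MC38, -0.44 in AE17 and -0.53 in LLC. Igf2r and Airn overlap in the genome on opposite strands, and how the probe sets treat strand was not given in the sources used here.

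Of the 25 members past the brightness filter, 3 had ratios above 0 in all 3 lines (Igf2r, Plagl1 and Gnas), against 16.8% of the 16797 genes tested, and 6 had ratios below 0 in all 3 (Airn, Peg3, Peg10, Meg3, Kcnq1ot1 and Magel2), against 15.5%. Of the 4 members not past the filter, Usp29 had ratios above 0 in all 3 lines, of 0.05 to 0.18 and with every array under the lower limit. Of the 25, under all 3 scalings only Igf2r kept its sign on the higher side, and Airn, Magel2, Meg3 and Peg3 kept theirs on the lower side. Gnas, which encodes the stimulatory G protein alpha subunit, was at 5.98 with sh Spp1 and 5.57 with sh Ctrl in MC38, 6.07 with sh Spp1 and 5.71 with sh Ctrl in AE17, and 6.20 with sh Spp1 and 5.51 with sh Ctrl in LLC. Its ratios were 0.42 in MC38, 0.36 in AE17 and 0.68 in LLC, a mean of 0.49 ± 0.17 (SD, n = 3 lines). On all 6 arrays the Gnas level lay between the lower and the higher detection limit. Gnas and Igf2r were the 2 members with the sh Spp1 arrays above the sh Ctrl arrays without overlap, against 5.74% of the 16797 genes tested. Those with the sh Spp1 arrays below numbered 0, against 4.79%. In the values as deposited the LLC ratio of Gnas turned to -0.06. The probe set annotated to Gnas and its antisense gene Gnasas1 together was at 5.12 with sh Spp1 and 4.80 with sh Ctrl in MC38, 4.29 with sh Spp1 and 5.76 with sh Ctrl in AE17, and 6.96 with sh Spp1 and 6.97 with sh Ctrl in LLC.

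Grb10, an adaptor protein that restrains insulin and IGF receptor signalling and whose reading copy depends on the tissue, was read in LLC. It stood at 4.34 with sh Spp1 and 4.36 with sh Ctrl in MC38, at 4.18 with sh Spp1 and 4.60 with sh Ctrl in AE17, and at 10.06 with sh Spp1 and 9.09 with sh Ctrl in LLC. Both LLC arrays were far above the higher limit and the other 4 were under the lower one. Against the limits, Grb10 was at least 21.1-fold lower in MC38 than in LLC and at least 19.9-fold lower in AE17 than in LLC. The fitted difference was -5.23 ± 0.39 (SE) for MC38 over LLC, with an adjusted limma p of 0.0559, and -5.19 ± 0.39 for AE17 over LLC, with 0.129. Over the alternative settings these ran from 0.00196 to 0.107 and from 0.00548 to 0.311. Grb10 was past the brightness filter of 4.49 only through LLC, since its mean level was 4.35 in MC38 and 4.39 in AE17. Its place among the genes tested thus rests on the line in which it was high. The fitted differences and their SE also rest on levels that the probe set does not resolve. Within LLC the ratio of sh Spp1 over sh Ctrl was 0.98, which became 1.06 on the deposited scale and 1.85 with arrays centred on their medians. Its neighbours did not share the pattern: Ddc was at 5.01 to 5.47 and Cobl at 4.73 to 4.96 over the 6 arrays, while Sec61g was at 10.26 to 10.84.

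Peg3, a paternally read zinc finger protein, was the other gene far higher on both LLC arrays. It stood at 5.03 with sh Spp1 and 5.11 with sh Ctrl in MC38, at 5.21 with sh Spp1 and 5.66 with sh Ctrl in AE17, and at 8.85 with sh Spp1 and 10.39 with sh Ctrl in LLC. Peg3 was at least 21.8-fold lower in MC38 than in LLC, and the AE17 arrays lay between the limits. The fitted difference was -4.55 ± 0.41 (SE) for MC38 over LLC, with an adjusted limma p of 0.0562, and -4.19 ± 0.41 for AE17 over LLC, with 0.167. Over the alternative settings these ran from 0.00300 to 0.0692 and from 0.00548 to 0.311. Within LLC the sh Spp1 array was 2.93-fold below its partner, a ratio of -1.55, which became -0.67 with arrays centred on their medians. The probe set annotated to Peg3 and Peg3os together was at 3.80 with sh Spp1 and 3.92 with sh Ctrl in MC38, 3.93 with sh Spp1 and 3.74 with sh Ctrl in AE17, and 5.68 with sh Spp1 and 5.79 with sh Ctrl in LLC, so it too was higher on the LLC arrays. Usp29, a ubiquitin-specific peptidase whose start lies head to head with that of Peg3 so that the 2 windows share 263 bases, was at 3.54 to 4.65 and under the lower limit on all arrays. Zim1, the maternally read zinc finger gene of the cluster, was at 3.36 to 3.79, also under it throughout.

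No member passed the tests between lines in the fit of all 6 arrays: 0 of 25 for AE17 over LLC, MC38 over LLC and MC38 over AE17, where the share of all genes was 0% in each. Before adjustment limma gave a p under 0.05 to 1936 genes for MC38 over LLC, 2153 for AE17 over LLC and 2209 for MC38 over AE17. For MC38 over LLC these held 8 members on the lower side (Grb10, Peg3, Airn, Kcnq1ot1, Gatm, Ndn, Sgce and Peg10), against 5.29% of all genes, and 0 on the higher side, against 6.24%. For AE17 over LLC they held 5 on the lower side (Grb10, Peg3, Kcnq1ot1, Airn and Ndn), against 4.99%, and 3 on the higher side (Cd81, Phlda2 and Slc22a18), against 7.83%. For MC38 over AE17 they held Gatm on the lower side, against 7.81%, and Impact on the higher side, against 5.34%. Grb10 and Peg3 were also the 2 members among the 112 genes with an adjusted p under 0.10 for MC38 over LLC, 0.667% of all genes. They were the 2 members with both LLC arrays at least 1 log2 unit above the 4 others, as had 35 genes or 0.208%. Grb10 was among the genes tested only through its LLC arrays. Refitted without AE17, MC38 over LLC called 8 of 25 members, all lower in MC38 (Grb10, Peg3, Airn, Peg10, Sgce, Mest, Gatm and Kcnq1ot1), against 6.14% of all genes. That refit was added after the data were seen and rests on 1 array per line and hairpin. The members were chosen with earlier results of these data known, so their share beside that of all genes is no test of the set. The 2 arrays of a line differ in hairpin and are not replicate cultures, so line and culture cannot be told apart here.

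**Figure D3:**
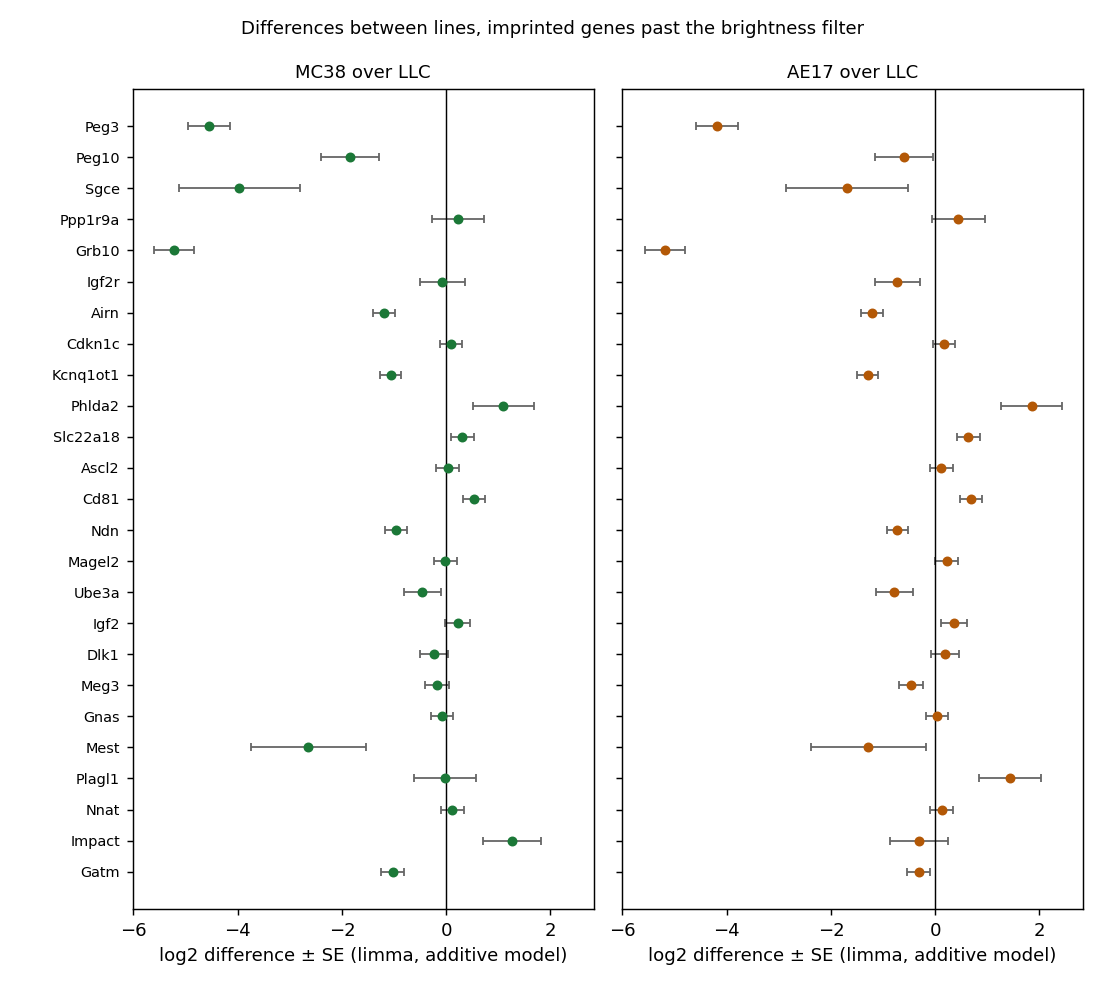
Fitted log2 difference between lines for the 25 imprinted genes past the brightness filter, MC38 over LLC on the left and AE17 over LLC on the right, with bars of 1 standard error from the limma fit. Grb10 and Peg3 lie at -5.23 and -4.55 for MC38 over LLC and at -5.19 and -4.19 for AE17 over LLC, away from the other members on the lower side in AE17.

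Peg10 and Sgce, the 2 paternally read genes of the Peg10 cluster, were both lower with sh Spp1 in AE17. RefSeq places their starts 102 bases apart. Sgce, which encodes epsilon-sarcoglycan, stood at 4.79 with sh Spp1 and 4.76 with sh Ctrl in MC38, at 4.94 with sh Spp1 and 9.15 with sh Ctrl in AE17, and at 8.83 with sh Spp1 and 8.65 with sh Ctrl in LLC. Peg10, a retrotransposon-derived gene needed for the placenta, stood at 6.06 with sh Spp1 and 6.11 with sh Ctrl in MC38, at 6.22 with sh Spp1 and 8.44 with sh Ctrl in AE17, and at 7.61 with sh Spp1 and 8.24 with sh Ctrl in LLC. In both genes the AE17 sh Ctrl array was above both LLC arrays, and the AE17 sh Spp1 array lay just above the MC38 arrays. Sgce was at least 15.4-fold lower with sh Spp1 than with sh Ctrl in AE17, and Peg10 was 4.68-fold lower. Between lines, Sgce was at least 11.9-fold lower in MC38 than in LLC, with a fitted difference of -3.97 ± 1.17 (SE) and an adjusted limma p of 0.331. Peg10 differed by -1.84 ± 0.56 (SE), with an adjusted limma p of 0.339.

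Ppp1r9a and Asb4, the maternally read members of the cluster in this set, had the opposite sign in AE17. Ppp1r9a, which encodes the actin-binding protein neurabin, was at 5.40 with sh Spp1 and 6.01 with sh Ctrl in MC38, at 6.45 with sh Spp1 and 5.39 with sh Ctrl in AE17, and at 5.10 with sh Spp1 and 5.85 with sh Ctrl in LLC. Asb4, an ankyrin repeat and SOCS box protein, was at 3.68 with sh Spp1 and 3.76 with sh Ctrl in MC38, at 5.84 with sh Spp1 and 3.71 with sh Ctrl in AE17, and at 3.66 with sh Spp1 and 3.70 with sh Ctrl in LLC. Only the AE17 sh Spp1 array brought Asb4 above the lower limit, where it was at least 1.43-fold higher than with sh Ctrl, and the same array was the 1 at which Ppp1r9a passed the higher limit. Genes between and beside them varied too. In AE17 the ratio was -0.14 for Casd1, -1.15 for Bet1, 1.34 for Gng11, -0.85 for Pon3 and -0.43 for Pon2. Pon3 and Pon2 lie between Ppp1r9a and Asb4 and had the sign of Peg10 and Sgce there. Pdk4 was at least 5.85-fold higher with sh Spp1 in AE17. In MC38 Pon3 was at 3.93 with sh Spp1 and 7.62 with sh Ctrl, while Peg10 and Sgce had ratios of -0.05 and 0.02.

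**Figure D4:**
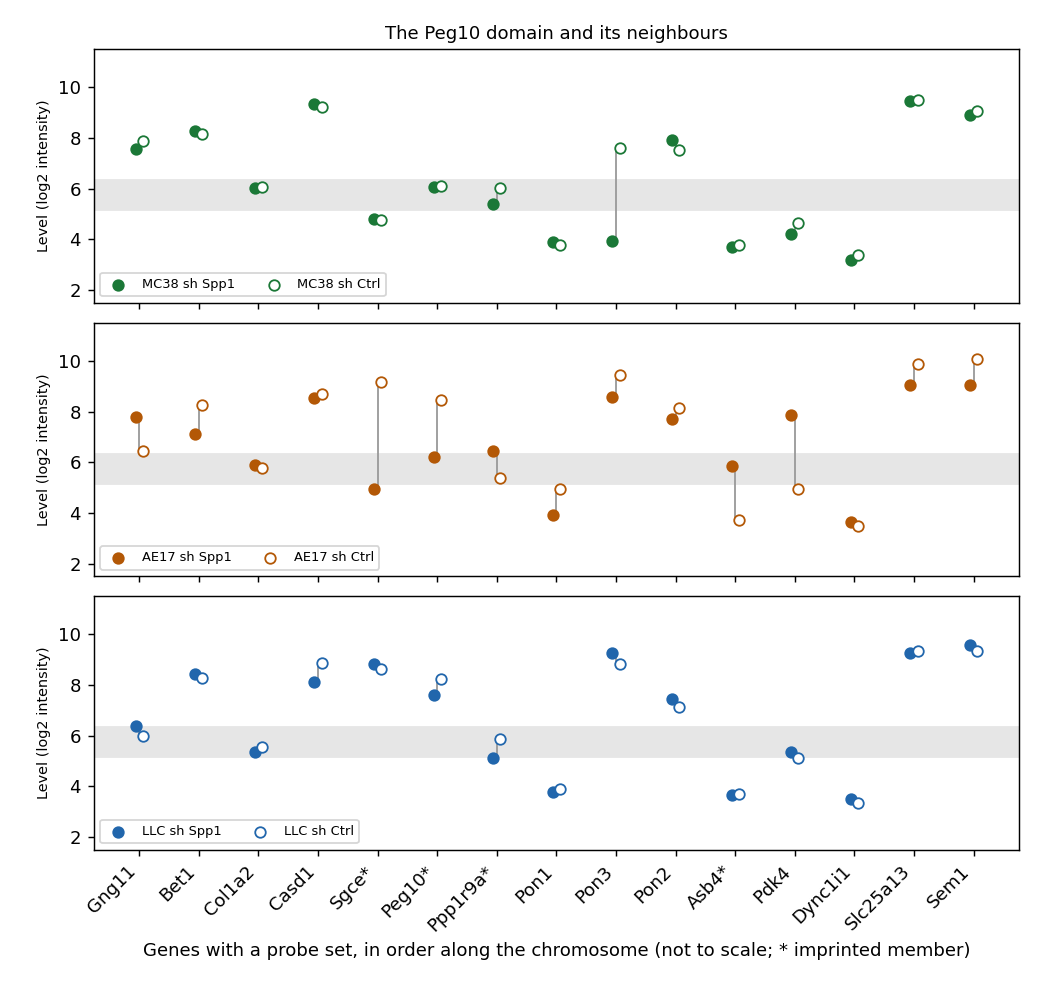
Levels of the genes with a probe set along the Peg10 cluster and its surroundings, in chromosome order, for MC38 (top), AE17 (middle) and LLC (bottom). Filled points are sh Spp1, open points sh Ctrl, and the grey band spans the detection limits. In AE17, Peg10 is lower with sh Spp1 by 2.23 log2 units and Sgce by at least 3.95, against the lower limit, Asb4 and Pdk4 are higher by at least 0.52 and 2.55, and Casd1 beside Sgce differs by -0.14.

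Mest and Plagl1 are paternally read genes outside these clusters. Mest, an alpha/beta hydrolase fold protein, stood at 4.93 with sh Spp1 and 4.60 with sh Ctrl in MC38, at 4.63 with sh Spp1 and 7.64 with sh Ctrl in AE17, and at 8.19 with sh Spp1 and 6.64 with sh Ctrl in LLC. The sign differed between lines: Mest was at least 5.40-fold lower with sh Spp1 in AE17 and 2.91-fold higher with sh Spp1 in LLC, and both MC38 arrays were under the lower limit. Between lines it was at least 4.73-fold lower in MC38 than in LLC. Beside it on the chromosome, in AE17, Cep41 had a ratio of 0.03, Copg2 one of -0.57 and Mkln1 one of -1.18.

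Plagl1, a zinc finger transcription factor that restrains cell growth, was above a limit on 1 array. It stood at 4.61 with sh Spp1 and 4.51 with sh Ctrl in MC38, at 7.12 with sh Spp1 and 4.90 with sh Ctrl in AE17, and at 4.64 with sh Spp1 and 4.51 with sh Ctrl in LLC. The AE17 sh Spp1 level was at least 3.49-fold above the AE17 sh Ctrl level, and the other 5 arrays were under the lower limit. Its second probe set was at 1.46 to 2.04 on all arrays and did not show this. Of the nearest genes on either side, Sf3b5 had a ratio of 0.24 in AE17 and Zc2hc1b was under the lower limit on all arrays. Beyond Zc2hc1b, Ltv1 had a ratio of -0.20 in AE17, and Phactr2, after it, was at 7.14 with sh Spp1 and 4.90 with sh Ctrl, at least 3.54-fold higher with sh Spp1.

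The Kcnq1 cluster set a long non-coding RNA that differed between lines beside 5 protein genes of which 3 stayed under the higher limit. Kcnq1ot1, the paternally read RNA that silences its neighbours, was at 7.47 with sh Spp1 and 7.65 with sh Ctrl in MC38, at 7.18 with sh Spp1 and 7.48 with sh Ctrl in AE17, and at 8.45 with sh Spp1 and 8.79 with sh Ctrl in LLC. Both LLC arrays were above the other 4, and the fitted difference was -1.06 ± 0.20 (SE) for MC38 over LLC and -1.29 ± 0.20 for AE17 over LLC, with adjusted limma p of 0.192 and 0.209. Its ratios of sh Spp1 over sh Ctrl were -0.18 in MC38, -0.30 in AE17 and -0.34 in LLC, and all 3 were above 0 with arrays centred on their medians.

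Phlda2, a PH domain protein that restrains growth of the placenta, was at 6.78 with sh Spp1 and 5.07 with sh Ctrl in MC38, at 6.36 with sh Spp1 and 7.00 with sh Ctrl in AE17, and at 5.21 with sh Spp1 and 4.45 with sh Ctrl in LLC. It was above the higher limit on both AE17 arrays and the MC38 sh Spp1 array and under the lower limit on the other 3. It was at least 2.99-fold higher with sh Spp1 in MC38, and at least 2.77-fold higher in AE17 than in LLC. Cd81, a tetraspanin of the cell surface, was bright everywhere, at 11.85 with sh Spp1 and 12.01 with sh Ctrl in MC38, at 12.16 with sh Spp1 and 12.03 with sh Ctrl in AE17, and at 11.37 with sh Spp1 and 11.44 with sh Ctrl in LLC. Its ratios stayed within -0.16 and 0.13, but with arrays centred on their medians they were 0.34 in MC38, 0.74 in AE17 and 0.99 in LLC.

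The other 3 protein genes of the Kcnq1 cluster gave levels near the lower limit. Cdkn1c, the cell cycle inhibitor p57, was at 5.77 with sh Spp1 and 5.55 with sh Ctrl in MC38, 5.67 with sh Spp1 and 5.80 with sh Ctrl in AE17, and 5.62 with sh Spp1 and 5.52 with sh Ctrl in LLC. Slc22a18, a solute carrier, was at 5.52 with sh Spp1 and 5.18 with sh Ctrl in MC38, 5.73 with sh Spp1 and 5.63 with sh Ctrl in AE17, and 4.99 with sh Spp1 and 5.09 with sh Ctrl in LLC, with both LLC arrays under the limit. Ascl2, a bHLH factor of trophoblast and intestinal stem cells, was at 5.40 with sh Spp1 and 5.44 with sh Ctrl in MC38, 5.64 with sh Spp1 and 5.37 with sh Ctrl in AE17, and 5.33 with sh Spp1 and 5.45 with sh Ctrl in LLC. No line had any of these 3 above the higher limit.

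In the Snrpn cluster, known for the Prader-Willi and Angelman syndromes, the ubiquitin ligase Ube3a was the bright gene. It was at 9.15 with sh Spp1 and 9.08 with sh Ctrl in MC38, at 8.47 with sh Spp1 and 9.12 with sh Ctrl in AE17, and at 9.89 with sh Spp1 and 9.27 with sh Ctrl in LLC. Ube3a is imprinted in neurons and read from both copies elsewhere, and its ratios were 0.07 in MC38, -0.65 in AE17 and 0.61 in LLC, a mean of 0.01 ± 0.64 (SD, n = 3 lines). Of the probe sets annotated to Snrpn and Snurf together, the brighter was at 4.09 with sh Spp1 and 4.32 with sh Ctrl in MC38, at 8.42 with sh Spp1 and 5.11 with sh Ctrl in AE17, and at 7.98 with sh Spp1 and 7.86 with sh Ctrl in LLC. It was at least 8.57-fold higher with sh Spp1 in AE17, and both MC38 arrays were under the lower limit. The other shared probe set did not show this pattern, at 5.41 to 6.11 over the arrays.

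Both MAGE family genes of that cluster lay near the limits. Ndn, which encodes necdin, was at 5.15 with sh Spp1 and 5.13 with sh Ctrl in MC38, 5.36 with sh Spp1 and 5.41 with sh Ctrl in AE17, and 6.22 with sh Spp1 and 5.99 with sh Ctrl in LLC. The LLC arrays were the 2 highest, and of the 6 the LLC sh Spp1 array was the 1 at the higher limit, with a fitted difference of -0.97 ± 0.21 (SE) for MC38 over LLC and an adjusted limma p of 0.235. Magel2 was at 4.84 with sh Spp1 and 5.34 with sh Ctrl in MC38, 5.27 with sh Spp1 and 5.40 with sh Ctrl in AE17, and 5.03 with sh Spp1 and 5.19 with sh Ctrl in LLC.

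The Dlk1 and Meg3 cluster, a source of many microRNAs and small nucleolar RNAs in the embryo and placenta, was not above the higher limit through any of its 3 genes with a probe set of their own. Dlk1, a transmembrane protein related to Notch ligands, was at 4.90 with sh Spp1 and 5.32 with sh Ctrl in MC38, 5.43 with sh Spp1 and 5.63 with sh Ctrl in AE17, and 5.52 with sh Spp1 and 5.17 with sh Ctrl in LLC. Meg3, its maternally read long non-coding RNA, was at 5.25 with sh Spp1 and 5.29 with sh Ctrl in MC38, 4.72 with sh Spp1 and 5.25 with sh Ctrl in AE17, and 5.38 with sh Spp1 and 5.52 with sh Ctrl in LLC. Rian, the host of small nucleolar RNAs, was under the lower limit throughout, at 3.39 to 3.99. Among the shared probe sets of the cluster, that of Mir134 and Mirg was at 5.68 with sh Spp1 and 6.08 with sh Ctrl in MC38, 5.72 with sh Spp1 and 6.36 with sh Ctrl in AE17, and 5.64 with sh Spp1 and 6.11 with sh Ctrl in LLC, above the higher limit on 2 of the 6 arrays. The 6 probe sets that name Rtl1, a retrotransposon-derived gene needed for the placenta, with other symbols gave 2.53 to 5.95 and were above the higher limit on no array.

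Of the 48 microRNA genes of imprinted loci, 34 had a value, and 26 of these were under the lower limit on all 6 arrays. Of 10 tested, 0 passed for the hairpin, and their median ratio was -0.28 in MC38, -0.07 in AE17 and -0.08 in LLC. Ratios were below 0 in all lines for 4 of the 10 (Mir341, Mir494, Mir665 and Mir673), against 15.5% of the 16797 genes tested. They were above 0 in all lines for 2 (Mir668 and Mir409), against 16.8%. The 2 highest means were those of Mir668, at 0.41 ± 0.12, and Mir409, at 0.12 ± 0.13 (SD, n = 3 lines). The lowest was that of Mir494, which was at 3.75 with sh Spp1 and 4.83 with sh Ctrl in MC38, at 4.45 with sh Spp1 and 5.34 with sh Ctrl in AE17, and at 4.18 with sh Spp1 and 4.63 with sh Ctrl in LLC, under the lower limit on 5 of the 6 arrays. Its unadjusted limma p was 0.0123 and its adjusted p 0.723. Mir673, of the Dlk1 and Meg3 cluster on chromosome 12, had the second lowest mean, and its 2 mature forms in RefSeq (GRCm38.p6) are shown because it was the 1 microRNA gene above the higher limit on all arrays. The seed, bases 2 to 8, is in capitals, and the 2 seeds differ.
mmu-miR-673-5p: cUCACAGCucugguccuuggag
mmu-miR-673-3p: uCCGGGGCugaguucugugcacc
Mir673 was at 7.41 with sh Spp1 and 8.13 with sh Ctrl in MC38, at 7.35 with sh Spp1 and 8.29 with sh Ctrl in AE17, and at 7.41 with sh Spp1 and 8.15 with sh Ctrl in LLC, so the 3 sh Spp1 arrays were below the 3 sh Ctrl arrays without overlap, as for 4.79% of all genes. The mean ratio was -0.80 ± 0.12 (SD, n = 3 lines), with an unadjusted limma p of 0.00603 and an adjusted p of 0.723. The arrays do not tell the mature forms from their precursor.

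The remaining single genes were of several kinds. Impact, a regulator of the translation kinase Gcn2, was at 10.83 with sh Spp1 and 10.05 with sh Ctrl in MC38, at 9.85 with sh Spp1 and 7.91 with sh Ctrl in AE17, and at 9.04 with sh Spp1 and 9.34 with sh Ctrl in LLC. The AE17 sh Ctrl array was the lowest of the 6 and the ratio there was 1.94, while that of LLC was -0.30, which turned to 0.54 with arrays centred on their medians. Gatm, the mitochondrial enzyme that starts creatine synthesis, was at 8.99 with sh Spp1 and 8.66 with sh Ctrl in MC38, at 9.53 with sh Spp1 and 9.54 with sh Ctrl in AE17, and at 9.87 with sh Spp1 and 9.83 with sh Ctrl in LLC. The LLC arrays were the highest for Gatm and the MC38 arrays the lowest, and the fitted difference was -1.03 ± 0.22 (SE) for MC38 over LLC, with an adjusted limma p of 0.224. Nnat, the membrane proteolipid neuronatin, was at 6.07 with sh Spp1 and 6.34 with sh Ctrl in MC38, at 6.25 with sh Spp1 and 6.19 with sh Ctrl in AE17, and at 6.15 with sh Spp1 and 6.04 with sh Ctrl in LLC on its brighter probe set. Its other probe set gave 5.66 with sh Spp1 and 4.74 with sh Ctrl in MC38, 4.59 with sh Spp1 and 3.66 with sh Ctrl in AE17, and 6.09 with sh Spp1 and 5.45 with sh Ctrl in LLC, so the probe sets disagreed, with ratios of 0.92 here and -0.27 on the brighter one in MC38, of 0.93 and 0.05 in AE17, and of 0.64 and 0.11 in LLC.

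A list of 26 genes tied to the upkeep or loss of imprints held DNA methyltransferases, the Zfp57 and Trim28 complex, Tet enzymes and Polycomb proteins among others. Of the 26, 22 were above the higher limit on all 6 arrays, beside 37.9% of all genes. Dnmt3l and Dppa3 were above it on none. For the hairpin, 0 of 26 passed the test. Their median ratio was 0.03 in MC38, -0.17 in AE17 and 0.01 in LLC. Of 25 with at least 1 AE17 array at the lower limit, 3 were higher with sh Spp1 by at least 1 log2 unit, against 11.8% of all genes, and 4 lower, against 10.3%. In MC38 0 of 25 were higher, against 1.06%, and 2 lower, against 1.97%, and in LLC 0 of 26 were either, against 4.25%. The highest mean ratios were those of Trim28, the corepressor bound by Zfp57, which was at 10.88 with sh Spp1 and 9.43 with sh Ctrl in AE17 and had ratios of 0.66 in MC38 and -0.25 in LLC, and of Tet1, which oxidises methylcytosine, at 6.99 with sh Spp1 and 5.67 with sh Ctrl in AE17 and with a ratio of 0.00 in MC38 and 0.42 in LLC. The lowest were those of Eed, a Polycomb subunit, at 7.77 with sh Spp1 and 9.40 with sh Ctrl in AE17 (-0.13 in MC38 and 0.11 in LLC), and of Atrx, a chromatin remodeller, at 8.30 with sh Spp1 and 9.27 with sh Ctrl in AE17 (-0.30 in MC38 and -0.29 in LLC).

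Of 16 further genes of the IGF axis, 13 were tested and 0 passed for the hairpin. Their median ratio was 0.12 in MC38, 0.51 in AE17 and -0.23 in LLC. Igf2bp3, an RNA-binding protein of Igf2 and other transcripts, had the highest mean. It was at 8.80 with sh Spp1 and 5.34 with sh Ctrl in AE17 and at 7.35 with sh Spp1 and 7.67 with sh Ctrl in LLC, and both MC38 arrays were under the lower limit. The receptor substrate Irs1 came next, at 6.82 with sh Spp1 and 5.43 with sh Ctrl in AE17, with ratios of 0.41 in MC38 and -0.44 in LLC. The binding proteins Igfbp4 and Igfbp6 had the lowest means. Igfbp4 was at 9.50 with sh Spp1 and 10.76 with sh Ctrl in AE17, with ratios of -0.26 in MC38 and -0.32 in LLC. Igfbp6 was at 8.74 with sh Spp1 and 9.75 with sh Ctrl in AE17, with ratios of -0.28 in MC38 and -0.31 in LLC.

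A list of 58 further imprinted genes and neighbours in imprinted domains had 45 tested, of which 0 passed for the hairpin. Of 51 with a value, 19 were above the higher limit on all arrays, near the share of 37.9% of all genes. The median ratio was 0.00 in MC38, -0.10 in AE17 and -0.03 in LLC. Sfmbt2, a Polycomb-related gene of the placenta, was at 7.59 with sh Spp1 and 4.16 with sh Ctrl in AE17 and at 6.88 with sh Spp1 and 5.44 with sh Ctrl in LLC, and both MC38 arrays were under the lower limit. Slc38a4, an amino acid transporter, was at 8.33 with sh Spp1 and 6.72 with sh Ctrl in MC38 and at 10.98 with sh Spp1 and 7.59 with sh Ctrl in AE17, with a ratio of -0.05 in LLC. The lowest means were those of Pon3, given above, and of Ampd3, an AMP deaminase, at 7.70 with sh Spp1 and 9.01 with sh Ctrl in AE17 and at 7.46 with sh Spp1 and 8.94 with sh Ctrl in LLC, with a ratio of -0.46 in MC38.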

How the data were processed

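Total RNA of 6 cultures was labelled with biotin and hybridised to 1-colour whole-transcript arrays, per the labels' protocols. The deposited intensities are linear, for 41345 probe sets. RMA is named in the submitters' processing notes and GeneSpring GX 12.5 in the series' design. The array medians of the values ran from 26.6 to 64.2, so the deposited intensities were taken as not scaled between arrays. The number of arrays limits the precision.

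Groups came from the titles. Intensities were log2 transformed and quantile normalized with limma 3.58.1 in R 4.3.3. Genes were named by the platform annotation: 23521 probe sets had 1 symbol, 1814 had several and 16010 had none. Entrez IDs tied 23328 to RefSeq genes of GRCm38.p6 with 0 symbols changed, and this assembly was used for names, gene order and sequences only. The brightest probe set stood for a gene, and of its start windows the one with the most CG was printed. Genes with a mean log2 level of at least 4.49, the 30th percentile of all probe sets, were tested with lmFit and eBayes, with line as a block and hairpin as a term. Line contrasts came from the same fit. The line label pairs the arrays of a line. Benjamini-Hochberg adjustment ran over 16797 genes, with a threshold of 0.05. Where a side was under the lower limit on all its arrays, a fold is a bound, from the higher of that limit and the measured level.

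The members and lists were chosen with earlier results of these data known. A member at or above the lower limit on any array is given on all 6. Lists are given by counts and medians, with the 2 highest and 2 lowest genes by mean ratio. The fit was tested on simulated data. Alternatives covered the scaling, filter, prior, block, limits, thresholds, several probe sets and each line left out. Figures used matplotlib 3.10.9.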

Additional observations from a re-analysis of the deposited data

Results flagged for a closer look

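Mest had ratios of at least 1 log2 unit in opposite directions in 2 lines. The log2 ratio of sh Spp1 over sh Ctrl was -3.01 in AE17 and 1.54 in LLC, each from 1 array against 1 array. The AE17 sh Spp1 array was under the lower detection limit, so against that limit the size there is at least 2.43. The difference between the lines was not tested. Under both other scalings the signs were the same, with -3.20 in AE17 and 1.15 in LLC for the values as deposited and -2.75 in AE17 and 1.94 in LLC with arrays centred on their medians.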

How the results depend on the processing

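The count of members past the hairpin test was 0 under each setting run, with no replicate block too, and 0 to 0 when each line was left out. The line label pairs the arrays, and the block changed no call. For AE17 over LLC, the count of 0 became 1 with no hairpin term and 2 in the values as deposited. For MC38 over LLC, the count of 0 became 2 with an adjusted p under 0.10, with the filter at the 50th percentile, with no filter, with no hairpin term, with a trend and robust prior, and in the values as deposited, and 8 without AE17 (a refit added after the data were seen). For MC38 over AE17 it was 0 throughout. With the higher limit, members detected on both arrays numbered 7 in MC38, 9 in AE17 and 12 in LLC, against 15 in MC38, 20 in AE17 and 19 in LLC with the lower one, and 24 in MC38 with the 30th percentile of all probe sets. Ratios of at least 1 numbered 2 in MC38 in the values as deposited, 2 with arrays centred on their medians and 4 at 1.5-fold, against 1, and in LLC 5 in the values as deposited and 8 at 1.5-fold, against 3. Of 71 counts under alternatives, 53 stayed within 1.5 times. Of 11 member ratios of at least 1 among the genes above the higher limit on at least 1 array, 8 stayed at least 1 under both other scalings and 0 changed sign. Of 102 ratios of these genes under the 2 other scalings, 28 moved by more than 1 SD over lines. The deposited scaling put the median ratio of all genes at 0.00 in MC38, -0.30 in AE17 and -0.54 in LLC, with the members at -0.12 in MC38, -0.48 in AE17 and -0.68 in LLC. Centring put all genes at 0.18 in MC38, 0.15 in AE17 and 0.25 in LLC, with the members at 0.05 in MC38, -0.02 in AE17 and 0.11 in LLC. The causes were not tested. With 1 array per line and hairpin, signals near the limits set what could be seen.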
